A study of Mus musculus with 15 samples.

Results

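Bone morphogenetic proteins (BMPs) are secreted growth factors of the TGF-beta family, and the genes described here are 6 of them (Bmp2, Bmp3, Bmp4, Bmp5, Bmp6 and Bmp7), 3 of their receptors (Bmpr1a, Bmpr1b and Bmpr2) and the secreted BMP antagonist Grem1. The 10 genes are a list by name, with no threshold on their values, made when earlier results of these data were known. A probe set, the group of short probes that reads 1 transcript, was taken as a member's when the array annotation gave it that gene's symbol and no other. This found 22 probe sets for 9 of the 10 genes, among 18193 genes measured in all, and Bmp3 was not analysed here. Each gene was read from its probe set with the highest mean over all arrays.

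Expression was measured on 15 single-colour Affymetrix arrays of mouse lung RNA, 3 in each of 5 groups, and all mice were of mixed background, on normal feed and untreated. The older set held wildtype lungs and Ptend/dSmad4d/d lung tumours at 12 months and was meant to find genes that separate tumours from normal lung. The younger set held wildtype, Ptend/d and Ptend/dSmad4d/d lungs at 7 months and was meant to find changes that come before tumours start. In this notation d/d marks a gene with both alleles deleted, and Smad4 encodes the shared SMAD partner. Neither the Cre line that deletes the alleles nor the cell types that carry the deletion is named in the labels. By the labels a lung sample was part of a whole lung and a tumour sample part of 1 tumour, so every level below is that of mixed tissue. In such tissue, fewer cells of a type and less RNA per cell cannot be told apart. The labels do not say that the 3 samples of a group came from 3 animals, so p-values measure the spread between these samples, which may be technical in part.

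As background, a BMP dimer binds a complex of type I receptors (such as Bmpr1a and Bmpr1b) and type II receptors (such as Bmpr2). The type II receptor phosphorylates the type I receptor, which phosphorylates Smad1, Smad5 and Smad9. These join Smad4, enter the nucleus and switch on target genes such as those of the Id family, while secreted proteins such as Grem1 and noggin hold the ligands away from the receptors. In the lung, BMP signalling takes part in branching of the embryonic airways and in the upkeep of airway epithelium, and loss of one copy of BMPR2 is a known cause of inherited pulmonary arterial hypertension.

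The 3 genes whose levels moved past the threshold are Bmpr1b, Bmp6 and Bmpr2, and the 250 bases before their annotated starts are shown so that a reader can see how different these upstream regions are. They come from RefSeq, build GRCm38.p6, and are written 5′ to 3′ on the gene's strand, in lower case with each match to GGCGCC in capitals. The Bmpr1b window is the first of its 3 annotated starts, chr3:141982265-141982514 on the minus strand. The Bmp6 window is chr13:38345466-38345715 on the plus strand and the Bmpr2 window chr1:59764029-59764278 on the plus strand.
Bmpr1b: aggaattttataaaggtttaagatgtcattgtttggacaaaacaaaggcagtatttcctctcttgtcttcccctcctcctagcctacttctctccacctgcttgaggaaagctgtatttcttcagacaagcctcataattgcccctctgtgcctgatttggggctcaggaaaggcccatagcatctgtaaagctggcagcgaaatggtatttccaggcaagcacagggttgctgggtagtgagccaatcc
Bmp6: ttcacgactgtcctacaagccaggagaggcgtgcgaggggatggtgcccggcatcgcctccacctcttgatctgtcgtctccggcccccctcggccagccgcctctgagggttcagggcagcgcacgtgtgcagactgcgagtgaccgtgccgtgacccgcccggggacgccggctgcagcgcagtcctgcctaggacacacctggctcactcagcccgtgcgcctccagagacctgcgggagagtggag
Bmpr2: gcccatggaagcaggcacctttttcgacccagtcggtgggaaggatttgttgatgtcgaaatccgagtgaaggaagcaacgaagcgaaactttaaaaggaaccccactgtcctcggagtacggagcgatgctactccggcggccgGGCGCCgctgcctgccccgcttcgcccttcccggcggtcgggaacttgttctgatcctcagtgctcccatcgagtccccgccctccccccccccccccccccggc
The windows differ in base composition: G and C make up 46.8% of the Bmpr1b window, 68.8% of the Bmp6 window and 64% of the Bmpr2 window, against a median of 52.4% over all 32851 windows. Windows 2 and 3 of Bmpr1b, not shown, hold 52.8% and 56.4%, both above that median. GGCGCC is a GC-rich motif known from BMP SMAD binding. It was searched on both strands, which for this palindrome are the same, and 9.59% of all windows hold it. Of the 9 windows of 7 members in the table, 3 held it, those of Bmpr2, Grem1 and Bmpr1a. The other motif searched, the SMAD-binding palindrome GTCTAGAC, does not overlap the first, was in 0 of the 9 and is in 0.167% of all windows. A match is a description of the letters only.

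Arrays of 1 group correlated at 0.982 to 0.996 over genes. The mean signal of the array's 18S rRNA controls was 1700 ± 504 in tumours and 6381 ± 778 in wildtype lung at 12 months (SD, n = 3 each), and group means at 7 months were 6953 to 7440.1; the part of this in the results was not tested. The arrays also differed by sex: the Y-linked Eif2s3y was at 1567 or above in all 3 tumours and on wildtype array 2 of 12 months, where the X-inactivation transcript Xist read 237 or less, while wildtype arrays 1 and 3 read 20.6 and 13.7 for Eif2s3y and 6786 and 6917 for Xist. At 7 months Eif2s3y was high on all 9 arrays and Xist on 8, the exception being wildtype array 3 at 48.1. The lung of 1 mouse does not give both transcripts at such levels, and the labels name neither sex nor pooling. Those 8 arrays may therefore each hold RNA of more than 1 mouse, and the SDs, SEs and p-values at 7 months may then measure the spread between pools and not between mice. Smad4 mRNA was not lower where the genotype lacks the gene, at 3303 ± 364 in tumours against 2819 ± 137 at 12 months (adjusted p = 0.213) and at 3292 ± 109 in Ptend/dSmad4d/d against 3220.4 ± 73.7 in wildtype lung at 7 months (adjusted p = 0.799). Whether its probes lie inside the deleted stretch is unknown here, so this does not check the genotype. The arrays of 12 and of 7 months are separate sets, so age and array set cannot be told apart, and each mutant group was tested against the wildtype lungs of its own age.

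**Figure D1:**
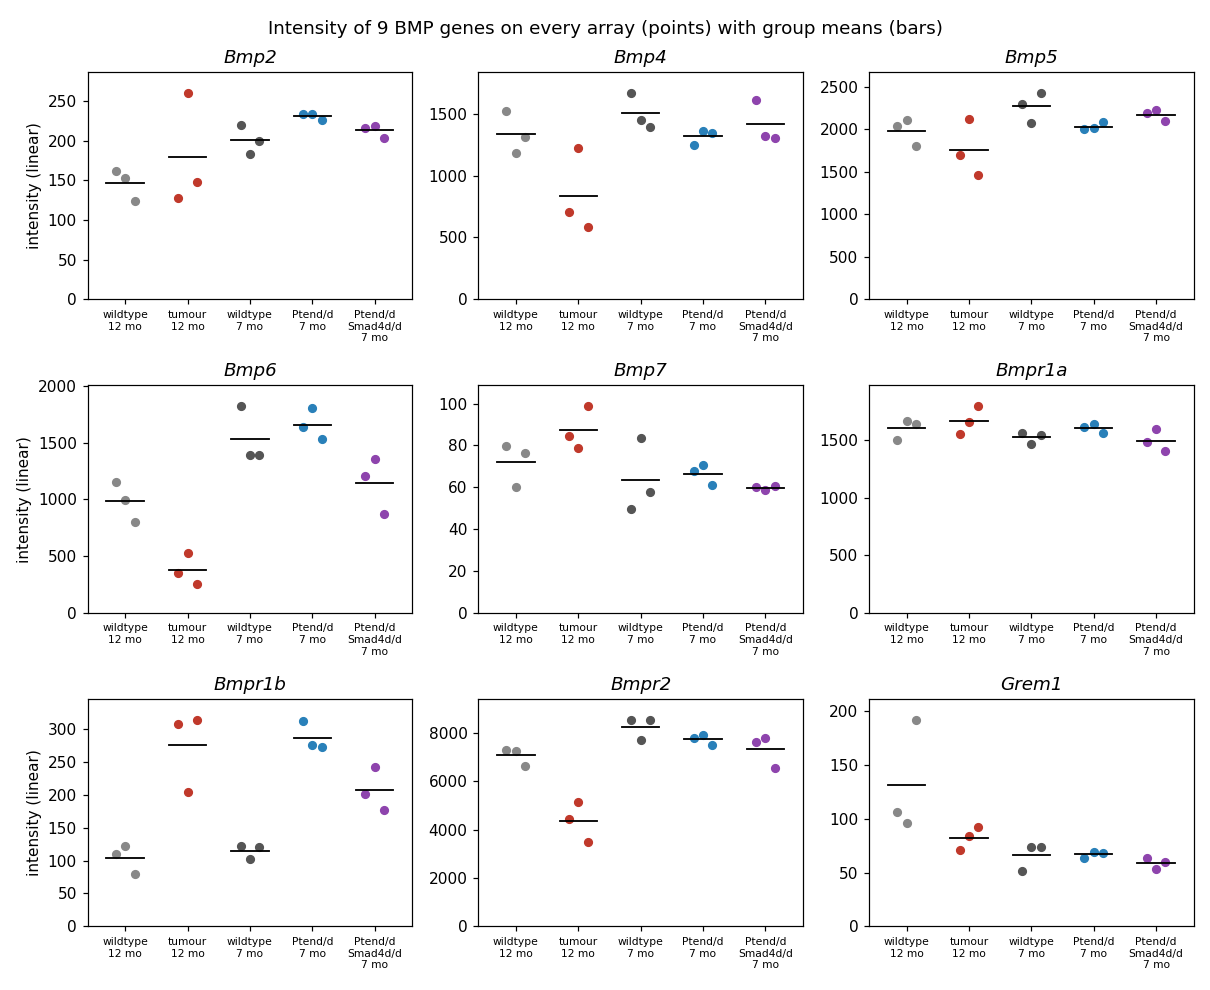
Intensity of each of the 9 measured genes (vertical axis, deposited linear units, starting at 0) on each of the 15 arrays (points), with group means as bars; groups are wildtype and tumour at 12 months and wildtype, Ptend/d and Ptend/dSmad4d/d at 7 months. Bmpr1b lies above its wildtype arrays in all 3 mutant groups, and Bmp6 and Bmpr2 lie below theirs in the tumours.

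In tumours, 3 of the 9 genes passed the test: the type I receptor Bmpr1b was 2.42-fold higher than in wildtype lung, the ligand Bmp6 2.63-fold lower and the type II receptor Bmpr2 1.64-fold lower. A gene counts as called at an adjusted p under 0.05 in limma, with Benjamini-Hochberg adjustment over all 18193 genes. Of all genes, 9.23% were called higher and 6.02% lower in this comparison, against 1 and 2 of the 9 members. The median log2 fold change was -0.18 over the members and 0.01 over all genes. At 7 months, before tumours, Bmpr1b was the called member in both mutant lungs, 2.31-fold higher in Ptend/d and 1.69-fold higher in Ptend/dSmad4d/d.

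Among the ligands, Bmp6, which in other tissues is known for its part in iron control and bone formation, showed the widest shift. It read 1154, 993 and 805 on the wildtype arrays of 12 months and 348, 528 and 253 in the tumours. Every tumour lay below every wildtype lung, with group means of 376 ± 139.6 and 984 ± 175 (SD, n = 3 each). The log2 fold change was -1.40 ± 0.27 (SE, adjusted p = 0.0232). It stayed between -1.66 and -1.15 when 1 array was left out, and the adjusted p then ran from 0.00892 to 0.0778, the call being kept only without tumour array 2.

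At 7 months Bmp6 read 1824, 1395 and 1389 in wildtype, 1637, 1806 and 1529 in Ptend/d and 1207, 1354 and 873 in Ptend/dSmad4d/d lungs. The Ptend/d values overlap wildtype, and the 3 Ptend/dSmad4d/d values lie below all the others of that age. The difference from wildtype was -0.43 ± 0.17 on the log2 scale (adjusted p = 0.173) and that from Ptend/d was -0.55 ± 0.17 (adjusted p = 0.161), so neither passed. Their 95% intervals were -0.82 to -0.04 and -0.94 to -0.16.

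Bmp4, a ligand with a main part in early lung branching, read 1519, 1181 and 1309 in wildtype lung of 12 months and 709, 1222 and 583 in tumours. Tumour arrays 1 and 3 lay well below wildtype and tumour array 2 within it, and the difference of -0.73 ± 0.27 was not called (adjusted p = 0.131). Without tumour array 2 it was -1.03 (adjusted p = 0.0131), and in 1 fit of all 15 arrays it was also called (adjusted p = 0.0195). At 7 months the values were 1672, 1452 and 1389 in wildtype, 1246, 1358 and 1346 in Ptend/d, and 1612, 1323 and 1307 in Ptend/dSmad4d/d. All 3 Ptend/d arrays lay below wildtype, but by only -0.19 ± 0.10 (adjusted p = 0.282).

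Bmp2, a close relative of Bmp4, read 162, 152 and 124 in wildtype lung and 128, 261 and 148 in tumours. The high tumour value is again array 2, and the groups overlap (log2 fold change 0.21 ± 0.25, adjusted p = 0.634). At 7 months Ptend/d lungs, at 233, 234 and 226, lay above wildtype lungs, at 220.2, 183 and 200.1, by 0.19 ± 0.08 on the log2 scale (adjusted p = 0.129). Ptend/dSmad4d/d lungs read 216, 219 and 203 (0.08 ± 0.08, adjusted p = 0.583).

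Bmp5 and Bmp7, related ligands of the Bmp6 subgroup, moved little. Bmp5 read 2034, 2108 and 1805 in wildtype lung and 1702, 2116 and 1461 in tumours, which overlap (-0.18 ± 0.15, adjusted p = 0.469). Its 7-month arrays ran from 2076 to 2431 in wildtype, 1997 to 2083 in Ptend/d and 2091 to 2223 in Ptend/dSmad4d/d, with adjusted p of 0.193 and 0.669 against wildtype. Bmp7 was dim on all arrays, so a change in it is hard to see. It read 79.9, 60.2 and 76.3 in wildtype lung and 84.6, 78.6 and 98.8 in tumours (0.23 ± 0.13, adjusted p = 0.272), and 49.8 to 83.7 over the 9 arrays of 7 months.

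Bmpr1b, a type I receptor also known as ALK6, was the 1 member called higher in all 3 mutant groups. At 12 months it read 111, 122 and 79.7 in wildtype lung and 309, 204 and 315 in tumours. The lowest tumour, array 2, is above the highest wildtype lung, and the means were 276 ± 62.2 and 104 ± 21.8 (SD, n = 3 each). The difference was 1.28 ± 0.21 on the log2 scale (adjusted p = 0.0151). With 1 array left out it ran from 1.12 to 1.47 with an adjusted p of 0.00811 to 0.0565, and the call was lost without wildtype array 3, tumour array 1 or tumour array 3.

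At 7 months Bmpr1b read 122, 103 and 121 in wildtype lungs and 313, 276 and 273 in Ptend/d lungs. No mutant value came near wildtype, and the difference was 1.21 ± 0.12 (adjusted p = 0.000377). Of all genes, 9.79% were called higher and 5.4% lower in Ptend/d, against 1 and 0 of the 9 members. In Ptend/dSmad4d/d lungs Bmpr1b read 201, 242 and 178, again all above wildtype (0.76 ± 0.12, adjusted p = 0.00488), where 6.42% of all genes were called higher and 1.39% lower. Both 7-month calls were kept without each array in turn, with an adjusted p of at most 0.00285 for Ptend/d and 0.0187 for Ptend/dSmad4d/d.

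The array holds 3 probe sets for Bmpr1b, and the other 2 are dim. The second read 5.64 to 32.6 over the 15 arrays and was not called in any comparison with wildtype, with log2 fold changes of 0.04 in tumours, 0.14 in Ptend/d and 0.05 in Ptend/dSmad4d/d. The third lay at 3.68 to 26.2 and moved in the same direction as the first, by 0.62 ± 0.17 in tumours (adjusted p = 0.0627 over 34945 probe sets), 0.44 ± 0.12 in Ptend/d (adjusted p = 0.0443) and 0.20 ± 0.12 in Ptend/dSmad4d/d (adjusted p = 0.401). The rise of Bmpr1b is thus read mainly from its brightest probe set. Its wildtype means there, 104 at 12 months and 115 at 7 months, were near the array medians of 90.9 to 99.5.

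Bmpr2, the type II receptor, read 7297, 7256 and 6637 in wildtype lung of 12 months and 4437, 5124 and 3474 in tumours. All tumours lay below all wildtype lungs, with means of 4345 ± 829 and 7063 ± 369 (SD, n = 3 each). The log2 fold change was -0.72 ± 0.15 (adjusted p = 0.0291). With 1 array left out it ran from -0.84 to -0.56, and the call was lost without any 1 of the 3 wildtype arrays or without tumour array 1, at an adjusted p of up to 0.0926. Each of its 3 probe sets was lower in tumours when tested alone over 34945 probe sets. The second fell by 0.58 (adjusted p = 0.0497) and the third, at 34.5 to 47.97 in tumours against 93.2 to 107 in wildtype lung, fell by 1.07 (adjusted p = 0.0079).

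At 7 months Bmpr2 read 8549, 7699.9 and 8533 in wildtype, 7778, 7899 and 7515 in Ptend/d and 7601, 7799.8 and 6530.5 in Ptend/dSmad4d/d lungs. The groups overlap, and the differences from wildtype of -0.09 ± 0.08 and -0.18 ± 0.08 were not called (adjusted p = 0.520 and 0.245). The 95% intervals were -0.28 to 0.10 and -0.37 to 0.01. On the third probe set all Ptend/dSmad4d/d arrays, at 115, 106 and 78.4, lay below the wildtype arrays, at 128, 125 and 148, by -0.38 ± 0.13, which was not called (adjusted p = 0.148 over 34945 probe sets). The second probe set differed by -0.35 ± 0.17 in Ptend/d and -0.33 ± 0.17 in Ptend/dSmad4d/d (adjusted p = 0.242 and 0.341).

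**Figure D2:**
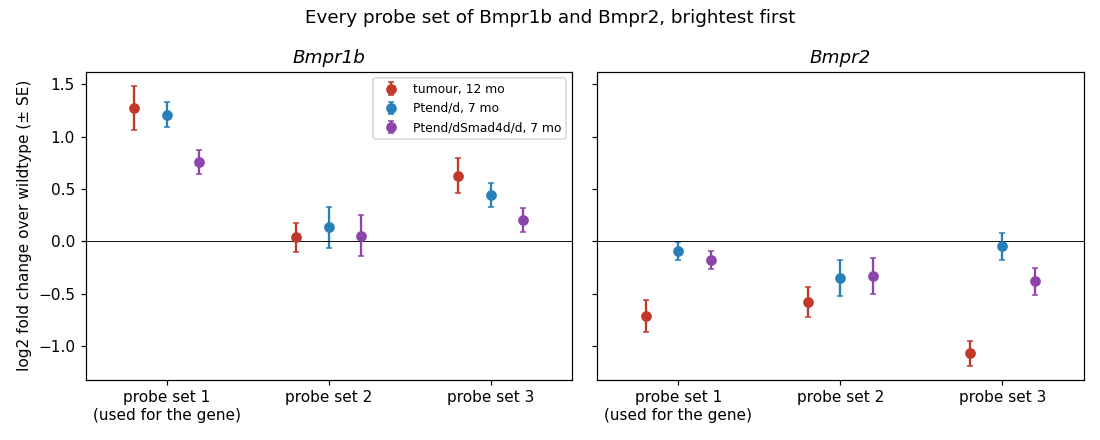
Log2 fold change over wildtype lung of the same age (vertical axis, points, with SE as bars) for each probe set of Bmpr1b and Bmpr2, brightest first, in tumours at 12 months and in Ptend/d and Ptend/dSmad4d/d lungs at 7 months. All 3 Bmpr2 probe sets lie at -0.58 or below in tumours, while the second Bmpr1b probe set stays near 0.

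Bmpr1a, the other type I receptor, also known as ALK3, held nearly the same level in every group. Its lowest array read 1404 and its highest 1794, and both belonged to mutant groups. Tumours differed from wildtype lung by 0.06 ± 0.09 (adjusted p = 0.731), with an interval of -0.16 to 0.28 that holds neither of the other receptors' shifts. The 7-month differences were 0.07 ± 0.07 in Ptend/d and -0.03 ± 0.07 in Ptend/dSmad4d/d (adjusted p = 0.530 and 0.818).

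Grem1, which binds BMP2, BMP4 and BMP7 and keeps them from their receptors, had group means of 59.1 to 132. The array medians were 90.9 to 99.5. Grem1 read 107, 96.2 and 192 in wildtype lung of 12 months and 71.1, 83.8 and 92.6 in tumours. The tumours all lay below wildtype, but wildtype array 3 alone is far above the others and the difference of -0.53 ± 0.24 was not called (adjusted p = 0.1995). Over the 9 arrays of 7 months Grem1 ran from 51.2 to 74.02 with no called difference.

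**Figure D3:**
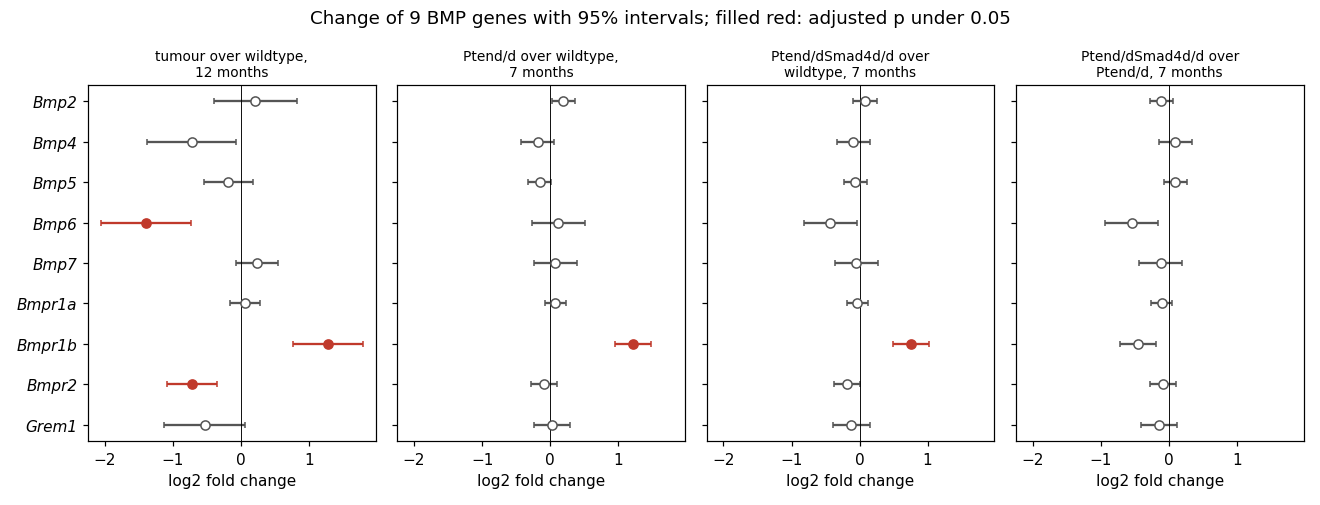
Log2 fold change (horizontal axis) of the 9 measured genes with 95% intervals (bars) in 4 comparisons, with filled red points for an adjusted p under 0.05. Bmpr1b is called in the 3 comparisons with wildtype, Bmp6 and Bmpr2 in tumours, and no member between the 2 mutant genotypes.

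The comparison of Ptend/dSmad4d/d with Ptend/d lungs at 7 months addresses what the Smad4 deletion adds in Ptend/d lungs. No member was called by limma, against 0.918% of all genes called higher and 0.841% lower. Bmpr1b, lower by -0.45 ± 0.12 (adjusted p = 0.102), and Bmp6 as given above had an unadjusted p under 0.05. The share of all genes under that unadjusted cut is not given here, so this is a description only. With array weights, which give less weight to arrays that deviate more, Bmpr1b was called (adjusted p = 0.0408). Both comparisons with wildtype share the same 3 wildtype arrays, so the 2 rises of Bmpr1b are not independent of each other.

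Whether a gene moved more in tumours than in the lungs of the same genotype at 7 months was tested as a difference of differences over all 15 arrays. No member was called, against 1.75% of all genes higher and 1.41% lower. Unadjusted p was under 0.05 for Bmpr2, Bmp6 and Bmp4, again with no share of all genes given at that cut. Bmpr2 differed by -0.54 ± 0.17 (adjusted p = 0.107), Bmp6 by -0.96 ± 0.33 (adjusted p = 0.133) and Bmp4 by -0.64 ± 0.29 (adjusted p = 0.262). For Bmpr1b the difference was 0.52 ± 0.24 (adjusted p = 0.275). The falls of Bmp6 and Bmpr2 are therefore called in tumours but not shown to be larger than at 7 months. Without tumour array 2 these 3 genes, Bmp4, Bmp6 and Bmpr2, were called in this contrast.

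The order of the groups differs from gene to gene, and is given across both ages as a description only. Bmpr1b means ran from 288 in Ptend/d and 276 in tumours through 207 in Ptend/dSmad4d/d lungs to 115 and 104 in wildtype lungs of 7 and 12 months. The arrays of neighbours in this order overlap except between Ptend/dSmad4d/d and wildtype of 7 months. Bmpr2 ran from 8261 in wildtype lung of 7 months through 7731 in Ptend/d, 7310.5 in Ptend/dSmad4d/d and 7063 in wildtype lung of 12 months to 4345 in tumours, where the step to tumours is the one without overlap. Bmp6 ran from 1658 in Ptend/d and 1536 in wildtype of 7 months to 1145 in Ptend/dSmad4d/d, 984 in wildtype of 12 months and 376 in tumours, and the step above Ptend/dSmad4d/d and the step to tumours are free of overlap.

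Among the members, the levels of Bmp6 and Bmpr2 followed each other most closely from array to array. After subtraction of each age's mean, their log2 values correlated at r = 0.95 over the 15 arrays. Bmp4 correlated with Bmpr2 at 0.86 and with Bmp6 at 0.82, and Bmpr1b ran opposite to Bmp4 at -0.73 and to Bmpr2 at -0.69. These arrays share their groups, so the values describe the pattern and carry no test. By the same measure the genes most like Bmp6 were Sema3a (0.99), Cav2 (0.98) and Tjp1 (0.98), those most like Bmpr2 were Specc1l (0.98), Cldn5 (0.98) and Mapt (0.98), and those most like Bmpr1b were Agmo (0.98), Vtcn1 (0.98) and Cdhr3 (0.97).

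Of 6 other BMP ligands measured, Gdf2, which encodes BMP9, was called higher in tumours and 0 lower, against 9.23% and 6.02% of all genes. From lowest to highest, as for all genes outside the 10 members below, it read 33.5, 38 and 43.9 in tumours and 22.3, 25.9 and 26.5 in wildtype lung (0.41 ± 0.10, adjusted p = 0.0434), a dim signal that lost its call when any 1 array was left out. Of the 6, 0 were called by limma at 7 months against wildtype, where the lowest adjusted p was that of Bmp10 in Ptend/d (0.0885), a gene named after its values were seen. All-gene shares at 7 months were 9.79% higher and 5.4% lower in Ptend/d, and 6.42% and 1.39% in Ptend/dSmad4d/d.

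Of 9 other receptors and co-receptors, 1 was called higher and 2 lower in tumours, against 9.23% and 6.02% of all genes. Acvrl1, the type I receptor ALK1 that binds BMP9 on endothelial cells, read 271, 536 and 647 in tumours and 987, 1042 and 1294 in wildtype lung (-1.24 ± 0.31, adjusted p = 0.0469). Acvr2b, a type II receptor shared with activins, read 111 to 123 against 179 to 212 (-0.65 ± 0.09, adjusted p = 0.0112). It was called without each array in turn but not with the mean of all its probe sets (-0.37, adjusted p = 0.0677). Hjv, the BMP co-receptor hemojuvelin, was higher, at 92.1 to 126 against 35 to 63.8 (0.94 ± 0.19, adjusted p = 0.0266). Without single arrays Acvrl1 lost its call 4 of 6 times (each wildtype array and tumour array 1, adjusted p up to 0.135), and Hjv kept its call only without wildtype array 2 (up to 0.0877). Of the 9, 0 were called by limma against wildtype at 7 months. The shares of all genes were 9.79% higher and 5.4% lower in Ptend/d, and 6.42% and 1.39% in Ptend/dSmad4d/d. The lowest adjusted p in both genotypes was that of Eng, an endothelial co-receptor named after its values were seen (0.0553 in Ptend/d and 0.0624 in Ptend/dSmad4d/d). At 7 months Acvrl1 read 1526 to 1723 in wildtype, 1100.1 to 1189 in Ptend/d and 843 to 1530.4 in Ptend/dSmad4d/d lungs (adjusted p = 0.08795 and 0.158).

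Of 16 secreted modulators, 2 were called higher and 3 lower in tumours, against 9.23% and 6.02% of all genes. Fst, follistatin, an antagonist of activins that also binds BMPs, read 772, 879 and 945 in tumours and 202, 318 and 420.5 in wildtype lung (1.47 ± 0.25, adjusted p = 0.0167). Chrdl2, a chordin-like antagonist, read 75.4, 85.5 and 99.9 against 16.6, 22.9 and 25.5 (1.45 ± 0.13, adjusted p = 0.00486), and it was called without each array in turn. Crim1, a membrane protein that binds BMPs, was lower at 1983 to 2492 against 3583 to 4002 (-0.77 ± 0.11, adjusted p = 0.0109). Fstl1, a follistatin-like secreted protein, was lower at 2612 to 3192 against 4123 to 6168 (-0.79 ± 0.17, adjusted p = 0.0308). Crim1 was called without each array in turn, Fst lost its call without wildtype array 3, tumour array 1 or tumour array 3 (adjusted p up to 0.0624), and Fstl1 kept its call only without wildtype array 2 (up to 0.0928). Chrdl1, the third that fell, was named after its values were seen (-1.15 ± 0.26, adjusted p = 0.0362).

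At 7 months 1 of the 16 modulators was called lower in each mutant genotype, and 0 were called higher. Of all genes, 5.4% were called lower and 9.79% higher in Ptend/d. In Ptend/dSmad4d/d the shares were 1.39% lower and 6.42% higher. In Ptend/d lungs Fst read 176, 209 and 211 against 291, 337 and 449 in wildtype (-0.79 ± 0.21, adjusted p = 0.0396), while it was higher in tumours. In Ptend/dSmad4d/d lungs it read 279, 314 and 484, which overlaps wildtype (adjusted p = 0.975). There Bmper, a secreted BMP-binding protein of endothelial cells, read 664, 747 and 779 against 933, 942 and 968 (-0.37 ± 0.08, adjusted p = 0.0278). Fst kept its call only without wildtype array 2 (adjusted p up to 0.128 otherwise) and Bmper only without Ptend/dSmad4d/d array 2 (up to 0.0745). Bmper also lost its call in 1 fit of all 15 arrays (adjusted p = 0.261) and with only the 2 groups compared (0.0681).

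Of the 8 SMADs and SMURFs, 0 were called in tumours by limma, against 9.23% of all genes higher and 6.02% lower. The lowest adjusted p was that of Smurf2 (0.0599), named after its values were seen. In Ptend/d lungs Smurf1, a ubiquitin ligase that marks BMP SMADs for breakdown, was lower at 374 to 426 against 461 to 568 (-0.37 ± 0.10, adjusted p = 0.0451), a call kept only without wildtype array 1 (up to 0.148). With the mean of all Smurf1 probe sets the difference was -0.14 and was not called (adjusted p = 0.245). In Ptend/d lungs 9.79% of all genes were called higher and 5.4% lower. In Ptend/dSmad4d/d lungs 0 of the 8 were called by limma, against 6.42% of all genes higher and 1.39% lower. The lowest adjusted p there was that of Smad7 (0.13). The intracellular relays Smad1 and Smad5 read 1481 ± 125 and 1403 ± 132 in tumours against 1306 ± 21.1 and 1246 ± 52.6 (adjusted p = 0.246 and 0.308).

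Of the 8 BMP target genes, 1 was called higher and 2 lower in tumours, against 9.23% and 6.02% of all genes. The median log2 fold change was -0.22 over the list and 0.01 over all genes. Id1, an inhibitor of basic helix-loop-helix factors, read 569.7, 844 and 1078 in tumours and 1415, 1558 and 1761 in wildtype lung (-0.95 ± 0.23, adjusted p = 0.0423). Id2 read 1865, 2111 and 2409 against 3175, 3234 and 3248 (-0.60 ± 0.11, adjusted p = 0.0196). Id4 went the other way, at 780, 1200.2 and 1347 against 347, 393 and 467 (1.40 ± 0.22, adjusted p = 0.0137). Id1 kept its call only without tumour array 2 (adjusted p up to 0.124 otherwise), Id2 without tumour array 2 or 3 (up to 0.0688), and Id4 lost it without wildtype array 1 or 3 or tumour array 1 (up to 0.0572).

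Id2 was also the target gene that differed at 7 months. In Ptend/d lungs 9.79% of all genes were called higher and 5.4% lower, and between the mutants 0.918% and 0.841%. Id2 was higher in Ptend/d lungs, at 2044, 2104 and 2343 against 1631, 1658 and 1669 in wildtype (0.38 ± 0.09, adjusted p = 0.0231). In Ptend/dSmad4d/d lungs it read 1468, 1469 and 1770.4, below Ptend/d by -0.46 ± 0.09 (adjusted p = 0.0457) and overlapping wildtype (adjusted p = 0.656). The first call was kept only without Ptend/d array 1 (adjusted p up to 0.0844 otherwise) and the second only without Ptend/dSmad4d/d array 3 (up to 0.145). With the mean of all Id2 probe sets neither was called, at 0.30 (adjusted p = 0.09995) and -0.29 (adjusted p = 0.219).

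**Figure D4:**
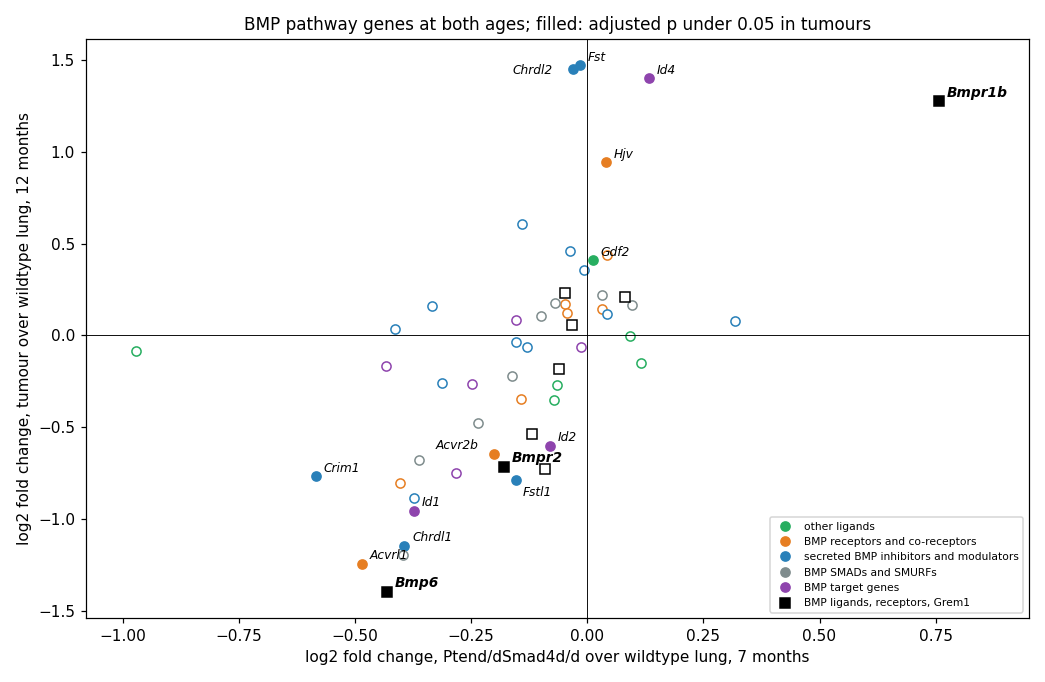
Log2 fold change of Ptend/dSmad4d/d over wildtype lung at 7 months (horizontal axis) and of tumour over wildtype lung at 12 months (vertical axis) for the 9 measured members (squares) and other BMP pathway genes (circles, coloured by list), filled and named where the adjusted p in tumours is under 0.05. Bmpr1b is high on both axes, while Fst, Chrdl2 and Id4 are high in tumours and near 0 at 7 months.

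Of 10 endothelial markers, 7 were called lower in tumours and 0 higher, against 6.02% and 9.23% of all genes. Their median log2 fold change was -1.17, larger in size than that of Bmpr2 and smaller than that of Bmp6. Kdr (-1.01), Emcn (-0.42) and Cdh5 (-0.02) were not called. The summed intensity of the 10 was 8283 to 12812 in tumours and 17767 to 20398 in wildtype lung at 12 months. At 7 months it was 26473 to 27666 in wildtype, 24058 to 25249 in Ptend/d and 19367 to 23617 in Ptend/dSmad4d/d lungs. There 2 of 10 were called lower in each mutant, against 5.4% of all genes in Ptend/d and 1.39% in Ptend/dSmad4d/d. The group mean of each of the 10 was above 16 in every group, and Cldn5, one of the 3 genes most like Bmpr2, is itself on that list.

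Set against these sums, Bmpr2 was 358 to 380.2 per 1000 units of endothelial marker intensity in wildtype lung of 12 months and 399.9 to 461 in tumours, so no tumour lay below wildtype on this scale. Bmp6 was 45.3 to 56.6 in wildtype lung and 30.6 to 41.2 in tumours, lower on all 3 arrays. At 7 months Bmp6 was 51.1 to 65.9 in wildtype, 63.6 to 71.5 in Ptend/d and 45.1 to 57.4 in Ptend/dSmad4d/d lungs, so on this scale the last group overlapped wildtype, which its intensities did not. Bmpr2 was 282 to 322 in wildtype, 312 to 317 in Ptend/d and 322 to 337 in Ptend/dSmad4d/d lungs. The part of endothelial RNA in either fall was not tested further. These ratios were chosen after the values were seen.

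All 7 ciliated cell markers were called higher in tumours and in both 7-month mutants, the groups where Bmpr1b was higher. The shares of all genes called higher were 9.23% in tumours, 9.79% in Ptend/d and 6.42% in Ptend/dSmad4d/d. The summed intensity of these markers was 9868 to 15898 in tumours against 4544 to 5981 in wildtype lung at 12 months. It was 6250.5 to 6933 in Ptend/d and 5766 to 7207 in Ptend/dSmad4d/d against 3080.4 to 3247 in wildtype lung at 7 months, and each marker's group mean was above 16. Per 1000 units of this sum, Bmpr1b was 15.9 to 24.4 in wildtype lung and 19.8 to 23 in tumours, overlapping. At 7 months it was 31.58 to 39.75 in wildtype, 39.83 to 50.14 in Ptend/d and 30.69 to 33.61 in Ptend/dSmad4d/d lungs. On this scale all Ptend/d arrays lay above wildtype, the lowest by a narrow margin, and Ptend/dSmad4d/d overlapped wildtype. The part of ciliated cell RNA in the rise of Bmpr1b was not tested further.

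**Figure D5:**
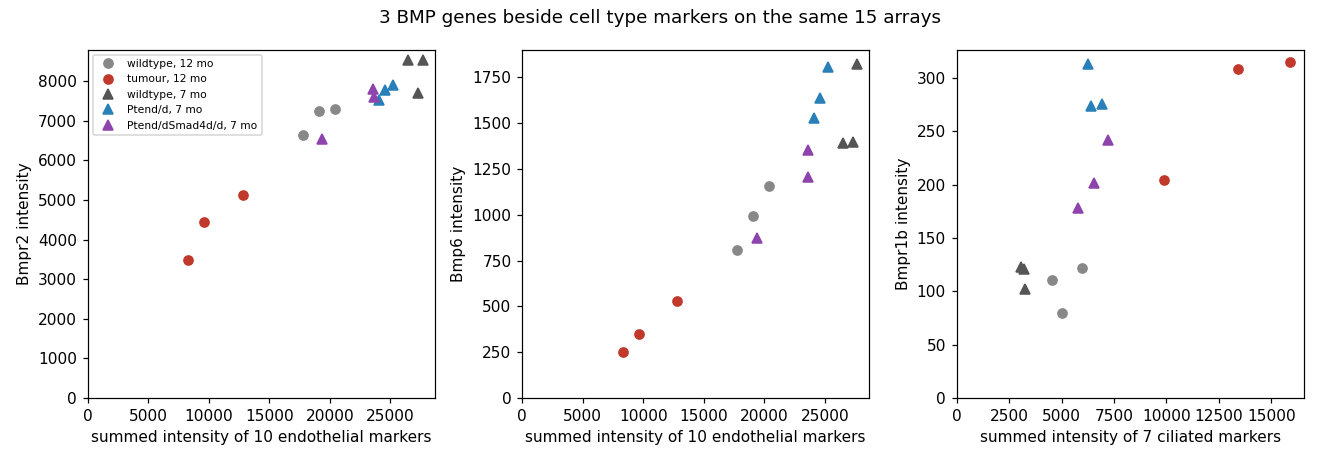
Intensity of Bmpr2, Bmp6 and Bmpr1b (vertical axes) against the summed intensity of 10 endothelial or 7 ciliated cell markers (horizontal axes) on each of the 15 arrays, with circles for 12 months and triangles for 7 months. The 3 tumours have the lowest endothelial sums, Bmpr2 and Bmp6 levels, and the mutant groups have higher ciliated sums than the wildtype lungs of their age.

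Markers of other cell types also differed. For the counts below, 9.23% of all genes were called higher and 6.02% lower in tumours. At 7 months these shares were 9.79% and 5.4% in Ptend/d and 6.42% and 1.39% in Ptend/dSmad4d/d. In tumours 5 of 5 basal and squamous markers were called higher, with sums of 2390.1 to 6162 against 77.8 to 124, and Krt15 and Trp63 of this list were called in Ptend/dSmad4d/d lungs at 7 months. Of 6 cardiac muscle markers 6 were higher in tumours, at 26009 to 29427 against 11139.6 to 15957. Of 7 macrophage markers 3 were lower, at 21264 to 23617 against 32576 to 38923. Summed alveolar type 1 markers did not overlap wildtype in any mutant group. They were 15365 to 24393 in tumours against 24835 to 27335 (1 of 7 called lower), and at 28489 to 31326 in Ptend/dSmad4d/d against 33475 to 34059.6 in wildtype lung at 7 months (2 of 7 called lower, Akap5 and Spock2). They were 31357 to 32023 in Ptend/d lungs, where 0 of 7 were called by limma. In tumours mesothelial sums were 6143 to 8959.7 against 2086 to 2825, with 2 of 5 markers called higher and 1 lower. Those called were Msln (2.90) and Krt19 (1.70) against Lrrn4 (-1.19). Upk3b (-1.39) and Wt1 (-0.20) were also lower but not called, and the median log2 fold change of this list was -0.20. Smooth muscle sums were 11572 to 15528 against 8724 to 11557, with 0 of 6 called by limma. In wildtype lung 2 of the 5 basal markers had a mean below 16, and the part of these lists in the members' changes was not tested.

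The tumours differ from 2 of the 3 wildtype lungs of their age in sex, so the comparison was repeated against wildtype array 2, which is low in Xist as the tumours are. Against that array the log2 differences were -1.42 for Bmp6, 1.06 for Bmpr1b and -0.76 for Bmpr2. With all 3 wildtype arrays they were -1.40, 1.28 and -0.72. Of the other pathway genes named as called in tumours, Hjv, Fst and Fstl1 had differences of 0.67, 1.01 and -0.54. These are smaller in size than the 0.94, 1.47 and -0.79 with all 3 wildtype arrays. Acvrl1, Id1 and Gdf2 were at -1.17, -0.94 and 0.50, against -1.24, -0.95 and 0.41. Chrdl1 was not among those refitted. A lone wildtype array gives no spread of its own, so this does not decide whether any call holds within a sex.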

How the data were processed

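The authors deposited a linear intensity for each of 45101 probe sets on each array. Per the labels' protocols, RNA was extracted with TRIzol and RNeasy and labelled with the 3' IVT Express protocol, which reads mostly transcript 3' ends. How background was corrected and arrays were scaled is not stated in the labels or the table. Probe sets were named from the platform annotation (34945 with exactly 1 symbol), and 1 per gene was kept by highest mean. Values were transformed as log2(intensity + 16) and tested with limma 3.58.1 (R 4.3.3, lmFit and eBayes, two-sided), with Benjamini-Hochberg adjustment over 18193 genes. The 12-month set was fitted on 6 arrays, the 7-month set on 9 and the difference between ages on 15. Fold changes on this scale understate changes of dim genes, and the number of arrays limits precision. The steps were tested on simulated data. Named genes were all members, up to 4 called genes per pathway list and comparison, Smad4, and the 3 genes most correlated with each called member. The members and lists were chosen with earlier results of these data known. Alternatives were other normalizations, filters, pseudocounts, probe set choices, variance models and sample sets.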

Additional observations from a re-analysis of the deposited data

Results flagged for a closer look

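Of the pathway genes named above, 3 differed between the tumour comparison at 12 months and the Ptend/dSmad4d/d comparison at 7 months by the test of the difference itself. Chrdl2 differed by 1.48 ± 0.20 on the log2 scale (1.45 in tumours and -0.03 at 7 months, adjusted p = 0.00339), and it was called without each of the 12 arrays in turn. Fst differed by 1.49 ± 0.35 (1.47 and -0.02, adjusted p = 0.0395), with the call kept without 4 of the 12 arrays and lost with a pseudocount of 1 (adjusted p = 0.061). Id4 differed by 1.27 ± 0.27 (1.40 and 0.13, adjusted p = 0.025), also kept without 4 of the 12. Bmp7 was drawn out because its group means moved in opposite directions, with all mutant arrays of an age on their own side of the wildtype mean: the difference was 0.28 ± 0.19 and was not called (adjusted p = 0.483). The opposite directions hold for the probe set used. Another Bmp7 probe set, also dim, was higher in both, by 0.23 in tumours and 0.32 at 7 months. The 7-month difference was 0.06 with the mean of all Bmp7 probe sets and 0.12 without wildtype array 2.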

How the results depend on the processing

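The 3 members called in tumours became 0 to 4 with 1 array left out: 0 without wildtype array 3 or tumour array 1, 1 without wildtype array 1 or 2 or tumour array 3, and 4 without tumour array 2, where Bmp4 joined. Against wildtype array 2 alone, with the spread of those 4 arrays, 0 were called, as were 0 of all genes. The called count of 1 in each 7-month comparison with wildtype did not change in any of the 18 alternatives. Between the mutant genotypes 0 became 1 (Bmpr1b) with array weights. For the difference between ages 0 became 1 (Bmpr2, adjusted p = 0.0453) with array weights, and leaving out 1 array gave 0 to 3. No named value reversed a call. At 7 months deviations from the group mean correlated at -0.13 to 0.16 between same-numbered arrays of different groups. Between differently numbered arrays they correlated at -0.18 to 0.15. With 3 arrays per group this cannot show whether the shared numbers pair the arrays. No paired analysis was possible at 12 months because the labels share no numbers there. A replicate block at 7 months left 1, 1 and 0 members called, and under it Smurf1 (adjusted p = 0.0807) and Fst (0.0632) in Ptend/d and Id2 between the mutants (0.0562) lost their calls. Over all genes, leaving out 1 array gave 622 to 1900 higher and 220 to 1426 lower in tumours, against 1679 and 1095, and 1 fit of all 15 arrays gave 2735 and 2191. For Ptend/d, leaving out 1 array gave 456 to 966 lower against 983. For Ptend/dSmad4d/d, leaving out 1 array gave 116 to 180 lower against 253, and the lower count was 555 with a variance trend, 488 without dim genes, 459 and 182 with pseudocounts of 64 and 1, 127 with array weights, 104 in 1 fit, 157 with the replicate block and 37 (730 higher) with only the 2 groups. Between the mutants, 167 higher and 153 lower became 42 to 108 and 57 to 121 without 1 array, 468 and 419 with array weights, 304 and 275 without dim genes, 294 and 268 with a variance trend, 289 and 265 or 97 and 101 with pseudocounts of 64 or 1, 103 and 102 in 1 fit, and 96 and 102 with the replicate block. For the difference between ages, 319 higher and 257 lower became 162 to 857 and 108 to 973 without 1 array, and the lower count was 425 with array weights and 387 or 164 with pseudocounts of 64 or 1. The causes were not tested.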

Other observations

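One further probe set of Bmpr1a read 181 to 237 over the 6 arrays of 12 months and 34.1 to 51.3 over the 9 arrays of 7 months, while the probe set used for the gene read 1404 to 1794 over all 15. Crim1 read 1983 to 4002 at 12 months and 153 to 324 at 7 months. Gdf2 read 22.3 to 43.9 at 12 months and 134 to 224 at 7 months. The cause was not tested, and age and array set cannot be told apart.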
